A study of Homo sapiens with 4 samples.

Results

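Cells build nucleotides, methyl donors and polyamines from amino acids, sugars and folate, and 40 genes of these pathways were followed here in a human melanoma cell line. They encode enzymes of purine, pyrimidine and deoxynucleotide synthesis, of folate use and the methionine cycle, and enzymes and regulators of polyamine synthesis. A gene was read from Affymetrix HG-U133 Plus 2.0 probe sets whose annotation names it alone. Such probe sets existed for 39 of the 40 genes, 91 probe sets of 54675 in all. UCK2, a uridine and cytidine kinase gene, had only probe sets that also name a microRNA, so no value is given for it. SHMT1, the cytosolic serine hydroxymethyltransferase gene, was above the signal floor on 1 array, a floor set at the median of all scaled values. The other 38 genes were above it on all 4 arrays and were tested among 13239 genes.

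The cells were M14, an established melanoma line that carried either the empty plasmid pIRES2, which also encodes eGFP, or pIRES2 with N-terminally FLAG-tagged ARHGAP8, a splice variant that lacks an exon. Both lines had been selected with G418 and sorted for eGFP, and G418 stayed in the medium. Each line was grown for 4 days on plastic coated with bovine type I collagen (2D) or embedded in growth factor-reduced Matrigel (3D), in medium with fetal bovine serum. Total RNA of each of the 4 combinations was measured on 1 array, and 1 line per plasmid was measured, so neither the spread between separately made lines nor that between cultures is known. The number of arrays limits the precision of every value. In bulk RNA, fewer cells expressing a gene and less RNA per cell cannot be told apart.

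All 4 probe sets of ARHGAP8 also name a second gene and were not used, so they did not check the labels; the transfected line is named here by its label, the line labelled ARHGAP8. Of 8 melanocyte markers, 7 had a probe set and 6 were above the floor on all arrays, MITF, SOX10, MLANA, TYR, TYRP1 and S100B, while PMEL was below it on all 4. Their summed signal was 7919 (empty vector) and 5169 (labelled ARHGAP8) for 2D culture and 8773 and 8494 for 3D culture. Values given as pairs below keep this order of the lines. The sums hide opposite differences. In 2D MLANA read 1614 and 488.5 and TYR 916.8 and 519.9, while TYRP1 alone was higher in the second line, at 161.3 and 339.1. In the culture test described below, 4 of the 6 markers rose in 3D, where 2.83% of all genes did. Of 12 measured markers of epithelial cells, leukocytes, endothelium and fibroblasts, 8 were below the floor on every array and 4 (PECAM1, COL1A1, COL1A2 and DCN) were above it, with a summed signal of the list between 941.6 and 1143. On the 3D array of the line labelled ARHGAP8, control probe sets for 18S ribosomal RNA had a median signal of 626.4, against 27.7 to 49.4 on the other arrays. That array enters each average over the lines below.

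Purines are assembled atom by atom on a ribose phosphate made by the PRPS enzymes, whereas the pyrimidine ring is made first by CAD, DHODH and UMPS and joined to the ribose afterwards. Ribonucleotide reductase (RRM1 and RRM2) turns ribonucleotides into deoxynucleotides, and TYMS makes thymidylate with a folate cofactor, steps that run highest in S phase. Polyamines start from ornithine, which ODC1 decarboxylates, and SRM and SMS add aminopropyl groups that come from methionine through MAT2A and AMD1, while SAT1 acetylates polyamines for export and breakdown. Antizymes (OAZ1 and OAZ2) send ODC1 to the proteasome and AZIN1, an enzymatically inactive relative of ODC1, counters them. MYC and its partner MAX bind the sequence CACGTG and are known activators of ODC1 and of many nucleotide synthesis genes.

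The upstream sequences of 4 genes that changed with the culture, described below, are shown, 3 that fell and 1 that rose. Each printed window carries the motif marked in it, and other genes that fell, such as CTPS1, are not shown. Where a gene had more than 1 start, the window with the most matches of that motif was taken. The windows printed therefore do not represent all genes that changed. They are 250 bases ending just before an annotated start, from RefSeq on GRCh38.p14, 5′ to 3′ on the strand of the gene. For ODC1 (chr2:10448013-10448262, minus strand) and SRM (chr1:11060019-11060268, minus strand), capitals mark CACGTG. For RRM2 (chr2:10122489-10122738, plus strand) and SAT1 (chrX:23782923-23783172, plus strand), capitals mark CCAAT, the core bound by the factor NF-Y, on either strand.
ODC1: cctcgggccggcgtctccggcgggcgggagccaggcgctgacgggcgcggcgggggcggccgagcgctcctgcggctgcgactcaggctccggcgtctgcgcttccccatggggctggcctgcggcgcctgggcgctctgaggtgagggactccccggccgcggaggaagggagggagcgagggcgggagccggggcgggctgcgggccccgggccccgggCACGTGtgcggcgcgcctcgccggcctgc
SRM: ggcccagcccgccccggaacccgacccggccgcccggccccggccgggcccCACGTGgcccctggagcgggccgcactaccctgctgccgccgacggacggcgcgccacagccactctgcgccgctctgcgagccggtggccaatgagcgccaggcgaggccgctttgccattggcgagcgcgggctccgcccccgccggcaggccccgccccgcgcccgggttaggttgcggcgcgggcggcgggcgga
RRM2: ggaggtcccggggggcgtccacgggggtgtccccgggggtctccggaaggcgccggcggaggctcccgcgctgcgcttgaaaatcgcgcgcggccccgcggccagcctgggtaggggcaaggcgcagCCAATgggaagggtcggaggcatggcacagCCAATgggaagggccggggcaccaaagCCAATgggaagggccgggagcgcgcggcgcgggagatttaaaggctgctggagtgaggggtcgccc
SAT1: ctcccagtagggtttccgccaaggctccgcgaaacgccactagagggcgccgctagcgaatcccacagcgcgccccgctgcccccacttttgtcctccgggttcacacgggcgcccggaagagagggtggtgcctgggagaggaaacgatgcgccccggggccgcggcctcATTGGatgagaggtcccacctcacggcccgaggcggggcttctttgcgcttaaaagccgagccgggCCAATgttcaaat
CACGTG lies 29 bases before the start in the ODC1 window and 199 before that of SRM. ODC1 and RRM2 each have another annotated start, not shown, whose window holds 0 CACGTG for ODC1 and 1 CCAAT for RRM2. CCAAT occurs at 123, 93 and 66 bases before the start shown for RRM2 and, once on each strand, at 79 and 13 bases before that of SAT1. A window was found for 37 of the 40 genes, 53 windows in all since several genes have more than 1 start. CACGTG, a palindrome, was in 7 of these 53 windows, those of PPAT, ATIC, DHODH, DCK, MTHFD1, ODC1 and SRM, and in 6.34% of all 35116 RefSeq windows of that length. CCAAT, searched on both strands, was in 22 of the 53, in windows of 19 genes, and in 32% of all windows. The SRM window printed above also holds 2 CCAAT matches, left in lower case. TTTNNCGC, a pattern that includes E2F sites, was in 4 of the 53, in windows of PRPS2, GART, TYMS and DUT, and in 5.92% of all windows. In these windows 0 matches of different motifs overlapped. None of the 3 motifs was in the windows of CTPS1 or UMPS, and no motif was set against expression by a test.

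The first comparison asked how growth in Matrigel (gel) differed from growth on collagen-coated plastic (plastic). The matrix changed together with the embedding, so their parts cannot be told apart. In 3D, 7 enzyme genes fell, CTPS1, ODC1, RRM2, SRM, MAT2A, NME1 and UMPS, and 1 gene, SAT1, rose. ODC1 and SRM make polyamines and SAT1 removes them. The falls ran from 1.54-fold for UMPS to 2.50-fold for CTPS1, and SAT1 was 1.69-fold higher. The remaining 30 tested genes did not pass.

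The test, run in limma, fitted plasmid and culture as additive terms, two-sided, with Benjamini-Hochberg adjustment over 13239 genes at 0.05, and 6.99% of all genes passed for the culture in either direction. Its error rests on how far the lines' own culture ratios differ, 1 residual degree of freedom, and eBayes moderated it with a prior worth 19.4 degrees of freedom. Each standard error (SE) therefore draws mostly on genes of like signal. Of the 38 genes 7 fell, or 18.4%, where 4.15% of all genes tested fell. The 1 rise is 2.63% of the 38, near the 2.83% of all genes tested. All 38 were above the floor on every array, unlike part of the 13239 genes. When only the 11201 genes above it on all 4 arrays were tested, 626 fell, among them 8 of the 38. The median difference of the 38 genes was -0.22 log2, against 0.03 over all genes tested. Both 3D arrays lay below both 2D arrays for 22 of the 38 genes, 57.9% against a background of 22.7%, and above them for 2, 5.26% against 27.5%. Ratios of the lines were both above 0 for 4 genes, 10.5% against 34.1%, and both below 0 for 23, 60.5% against 28.9%. In the empty-vector line alone, which does not use the 3D array with the raised ribosomal RNA signal, the median was -0.24, and it was -0.15 with the mean of probe sets and -0.12 without suffixed probe sets, those whose names mark possible matches to other transcripts. In the line labelled ARHGAP8 it was -0.23.

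**Figure D1:**
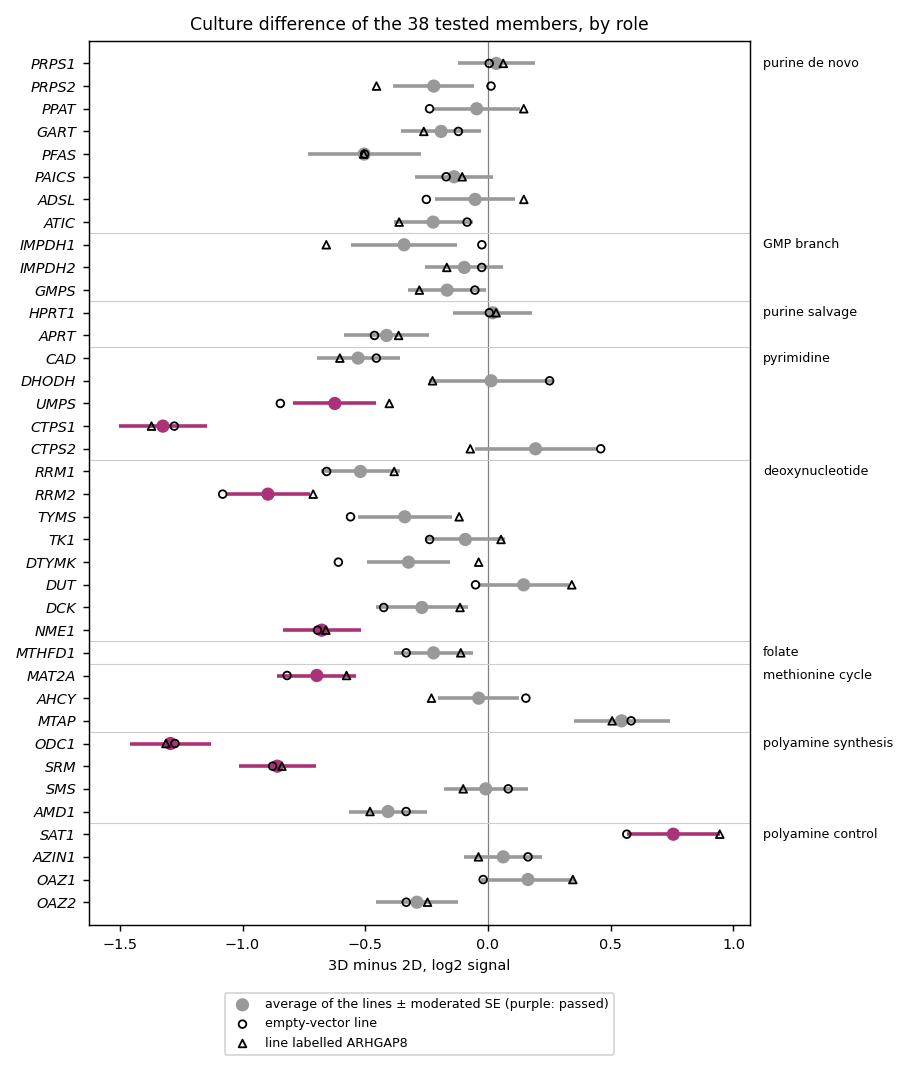
The 3D minus 2D difference in log2 signal of the 38 tested genes, grouped by role. Filled points are averages of the lines with the moderated SE as bars, purple where limma's adjusted p was under 0.05, and open circles and triangles are the ratios of the empty-vector line and the line labelled ARHGAP8. CTPS1 and ODC1 lie farthest to the left, at -1.32 and -1.29, and SAT1 farthest to the right, at 0.75.

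Enzymes of the purine pathway showed small differences. None of the 8 genes from PRPS1 to ATIC passed, with differences between -0.50 and 0.03 log2 and a median of -0.16. PFAS, which makes the amidine intermediate, had signals of 250.6 and 256.4 in 2D and 176.9 and 180.6 in 3D, a difference of -0.50 ± 0.23 (moderated SE, 4 arrays; limma adjusted p 0.209). PPAT, the amidotransferase of the committed step, was at -0.05 with -0.24 for the empty-vector line and 0.15 for the other. PAICS, whose start lies close to that of PPAT on the opposite strand, was at -0.14, the trifunctional GART at -0.19, ADSL at -0.05 and ATIC, which completes the ring, at -0.22.

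The enzymes of GMP synthesis, IMPDH1, IMPDH2 and GMPS, were at -0.34, -0.10 and -0.17, lower in 3D in both lines without passing. HPRT1, which salvages hypoxanthine and guanine, was at 0.02, with signals of 1768 and 1668 in 2D and 1774 and 1707 in 3D. APRT, which salvages adenine, had signals of 560.0 and 548.2 in 2D and 406.4 and 425.9 in 3D, and its difference of -0.41 ± 0.17 (moderated SE, 4 arrays) did not pass, with an adjusted p of 0.169 in limma.

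In the pyrimidine pathway the difference was largest at the last step. CTPS1 aminates UTP to CTP. On plastic its signal was 635.5 and 698.7, and in gel 262.0 and 270.1. Both 3D values were under those of 2D by more than the lines differed. It fell by 1.32 ± 0.18 log2 (moderated SE, 4 arrays; limma adjusted p 8.4e-05). Its paralog CTPS2 read 144.1 and 198.6 in 2D and 198.1 and 188.9 in 3D, a difference of 0.19 ± 0.25 that did not pass. The lines differed in sign for CTPS2, at 0.46 and -0.07.

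UMPS, which makes UMP, read 841.5 and 838.7 in 2D and 468.2 and 634.7 in 3D. The 3D arrays were lower in both lines, by 0.85 and 0.40 log2 in size, and it fell by 0.62 ± 0.17 (moderated SE, 4 arrays; adjusted p 0.0276 in limma). This call was lost with quantile normalization (adjusted p 0.0904), with the mean of its probe sets (-0.33, adjusted p 0.275) and without suffixed probe sets (-0.09, adjusted p 0.879), among other settings, and held in 4 of 10 settings. CAD, the trifunctional enzyme of the first steps, read 660.7 and 603.9 in 2D and 482.0 and 397.4 in 3D. Its difference of -0.53 ± 0.17 had an adjusted p of 0.0643 in limma and did not pass. DHODH, the mitochondrial dehydrogenase between CAD and UMPS, was at 0.01 with the lines at 0.25 and -0.23.

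Of the 8 genes of deoxynucleotide supply followed here, read from the probe sets used, RRM2, the small subunit of ribonucleotide reductase, and NME1 passed. RRM2 had signals of 2939 and 3018 in 2D and 1389 and 1842 in 3D. Its 2D arrays were close to each other and both 3D arrays were lower. It fell by 0.90 ± 0.17 log2 (moderated SE, 4 arrays; adjusted p 0.00235 in limma), a 1.86-fold difference, and its other probe set read -1.08. NME1, a nucleoside diphosphate kinase gene, had signals of 1910 and 2206 in 2D and 1180 and 1396 in 3D, and fell by 0.68 ± 0.16 (adjusted p 0.0118 in limma). The lines had nearly the same NME1 ratio, -0.69 and -0.66. It shares a readthrough transcript and close sequence with NME2, which the probe sets used here did not name alone, so its value may include other transcripts.

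RRM1, the large subunit, read 1607 and 1637 in 2D and 1019 and 1256 in 3D. Its difference of -0.52 ± 0.16 missed the threshold (adjusted p 0.0541 in limma). TYMS read 4816 and 4684 in 2D and 3266 and 4317 in 3D, with ratios of -0.56 and -0.12 for the lines, and did not pass. DTYMK, thymidylate kinase, had ratios of -0.61 and -0.04, and DCK, deoxycytidine kinase, -0.42 and -0.11. TK1, which salvages thymidine, was at -0.09, and DUT, which removes dUTP, at 0.15. In this group 6 of 8 genes were lower in 3D in both lines, with group medians of -0.58 for the empty vector and -0.12 for the transfected line; the difference between these medians was not tested.

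**Figure D2:**
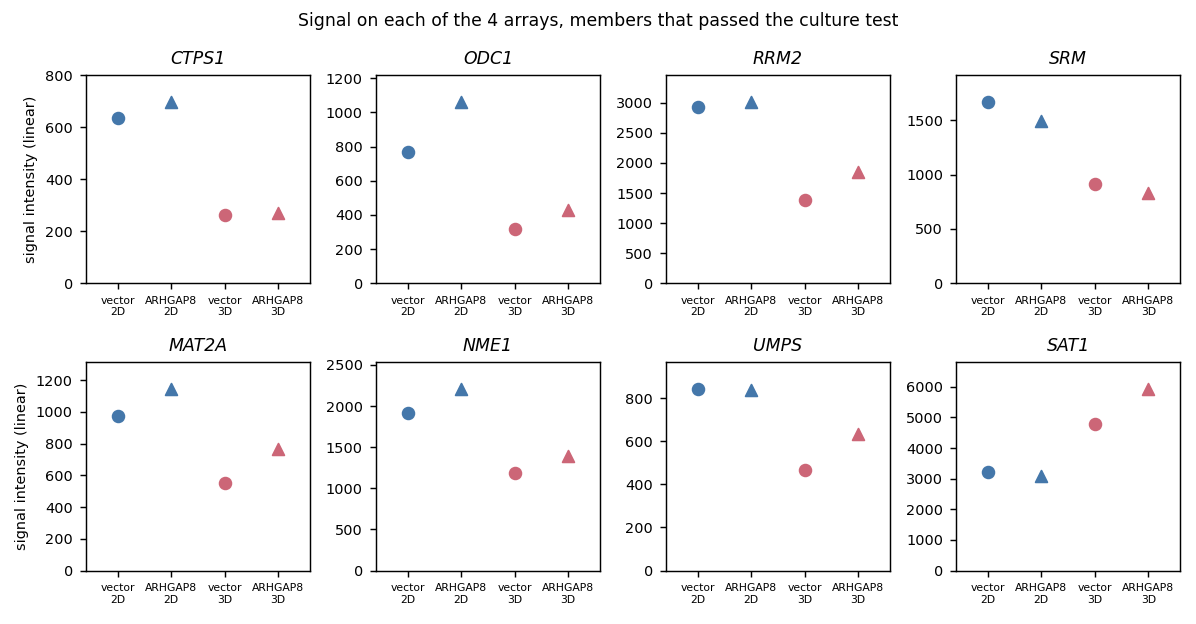
Signal intensity on a linear axis from 0 on each of the 4 arrays for the 8 genes that passed the culture test; circles are the empty-vector line, triangles the line labelled ARHGAP8, blue 2D and red 3D. For 7 genes both 3D points lie below both 2D points, and for SAT1 they lie above, at 4772 and 5929 against 3224 and 3081.

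Of the folate genes, MTHFD1, a trifunctional cytosolic enzyme that supplies formyl groups to purines, was at -0.22 ± 0.16 and did not pass. SHMT1 read 57.2, 38.2 and 43.2 on the empty-vector 2D, ARHGAP8 2D and empty-vector 3D arrays, all below the floor, and 85.0 on the ARHGAP8 3D array, which is the array with the raised ribosomal RNA signal. In the methionine cycle, MAT2A makes S-adenosylmethionine, the methyl donor. Signals of 973.3 and 1144 on plastic compared with 551.8 and 767.3 in gel, lower in both lines. It fell by 0.70 ± 0.16 log2 (moderated SE, 4 arrays; adjusted p 0.0101 in limma), and its other probe set read -0.86. AHCY, which hydrolyses S-adenosylhomocysteine, was at -0.04. MTAP, which recycles the methylthioadenosine left by polyamine synthesis, was higher in 3D by 0.54 ± 0.20 without passing (adjusted p 0.103 in limma), and 3 of its 4 other tested probe sets had the opposite sign, from -0.47 to -0.26; the mean of its probe sets gave 0.017.

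Polyamine genes showed the largest shift of the synthetic groups by median, -0.63 log2 over 4 synthesis genes. ODC1, the first enzyme, had signals of 768.5 and 1062 on plastic, and of 317.5 and 427.8 in gel. The line labelled ARHGAP8 was the higher of the lines in both cultures, and both lines were lower in gel by a like amount, with ratios of -1.28 and -1.31. ODC1 fell by 1.29 ± 0.17 log2 (moderated SE, 4 arrays; adjusted p 4.5e-05 in limma), a 2.45-fold difference. SRM, spermidine synthase, read 1669 and 1492 in 2D and 908.6 and 833.9 in 3D. It fell by 0.86 ± 0.16 (adjusted p 0.0017 in limma), with ratios of -0.88 and -0.84. SMS, spermine synthase, read 2705 and 2679 in 2D and 2864 and 2497 in 3D, and its difference was -0.01 ± 0.17. AMD1, the S-adenosylmethionine decarboxylase gene, was at -0.41 ± 0.16 (limma adjusted p 0.135), short of the threshold.

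SAT1, spermidine/spermine N1-acetyltransferase, moved the other way. Signals of 3224 and 3081 on plastic compared with 4772 and 5929 in gel, higher in both lines, by 0.57 and 0.94 log2. It rose by 0.75 ± 0.19 (moderated SE, 4 arrays; adjusted p 0.0181 in limma), and its other probe sets read 0.63 and 0.82. For the probe set used, the larger ratio comes from the array with the raised ribosomal RNA signal. Without that array its value is 0.57, from 1 array against 1. The other probe sets had ratios of 0.63 and 0.64, and of 1.19 and 0.45, so the larger ratio was not always on that array. The genes whose proteins control ODC1 turnover did not pass, and the proteins were not measured. AZIN1 was at 0.06, OAZ1 at 0.16 and OAZ2 at -0.29. ODC1 and its inactive relative AZIN1 therefore stood at -1.29 and 0.06 side by side, a contrast with no test of its own.

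As single ratios, RRM2, ODC1 and CTPS1 were 2-fold or more lower in 3D in the empty-vector line, 3 of 38 measured there, with a background of 1.27%. In the line labelled ARHGAP8 2 of 39 were, ODC1 and CTPS1, against 1.91%. None was at least 2-fold higher in either line, where 1.72% and 1.78% of all genes were. CTPS1 and ODC1 passed in all 10 settings tried. RRM2 and SRM passed in 9, all but the mean of probe sets, with adjusted p of 0.0808 and 0.0851 in limma there. NME1 passed in 8 of 10, MAT2A in 7 of the 9 that gave it a value and SAT1 in 6 of 9. Each of the 8 genes kept its sign in every setting that gave it a value. For most settings this could not have come out otherwise. Changing the filter or the eBayes trend leaves a gene's difference as it was, and the floors tried did not alter it for these 8. For CTPS1, ODC1, SRM and NME1, each with a single probe set, only the other normalizations gave a new value.

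**Figure D3:**
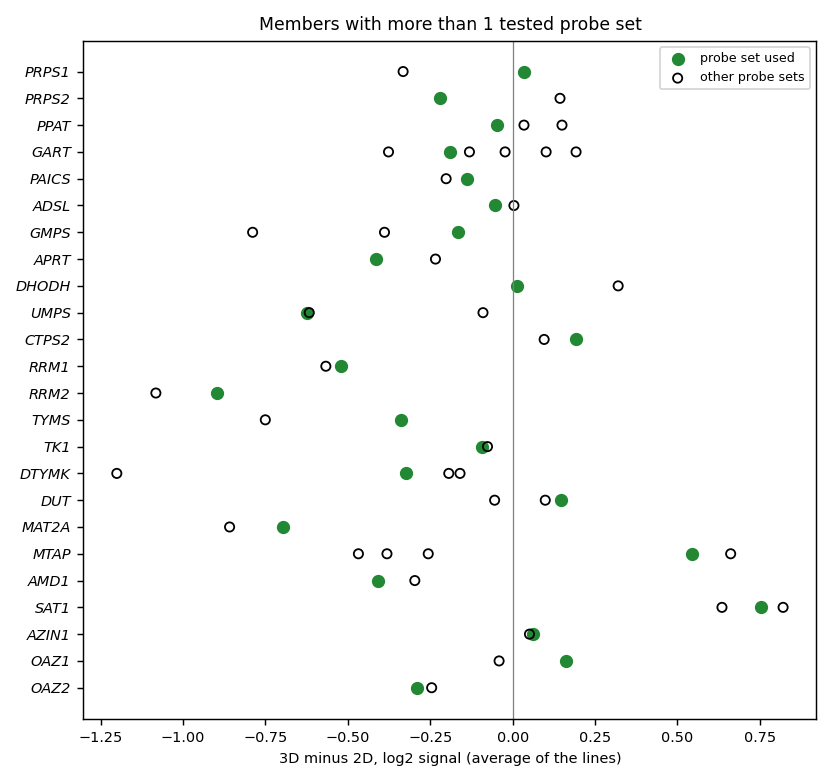
The 3D minus 2D difference in log2 signal, averaged over the lines, for the 24 genes with more than 1 tested probe set. Filled green points are the probe sets used, those with the highest mean, and open circles the others; those of SAT1, RRM2 and MAT2A lie together, while those of MTAP, GART and DTYMK spread widely.

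Other probe sets of the same genes gave a check on the values. Of 76 tested probe sets, 38 were not the one used, and 26 of these 38 had the same sign as the one used. In a fit over all 28651 probe sets, in which 3.49% passed, TYMS had a second probe set at -0.75 (adjusted p 0.0189 in limma) while the one used was at -0.34. DTYMK had 1 at -1.20 (adjusted p 0.0221 in limma), with signals of 203.4 and 309.7 in 2D and 78.4 and 152.1 in 3D, against -0.32 for the one used. UMPS had 1 at -0.62, the same as the one used, and neither passed among the probe sets (adjusted p 0.0598 and 0.0652 in limma); a further probe set, near the floor, was at -0.09. CTPS1, ODC1, SRM and NME1 had 1 probe set each, so no such check exists for them.

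Other genes of the same pathways were read from a list of 78, of which 68 were tested. Of these 6 fell and 1 rose, 8.82% and 1.47%, beside 4.15% and 2.83% of all genes tested, and the list's median was -0.04 log2. SLC19A1, the reduced folate carrier gene, had signals of 366.7 and 412.4 in 2D and 165.7 and 168.0 in 3D, and fell by 1.22 ± 0.22 (moderated SE, 4 arrays; adjusted p 0.00125 in limma). SLC25A32, which carries folate into mitochondria, fell by 0.68. DCTPP1, which clears dCTP, fell by 0.93 and SAMHD1, which degrades deoxynucleotides, fell by 1.06. UPP1, uridine phosphorylase, fell by 0.82, with ratios of -1.33 and -0.31 for the lines, and ADI1 of methionine salvage fell by 0.68. TK2, the mitochondrial thymidine kinase gene, rose by 0.81, close to the threshold (adjusted p 0.0484 in limma). Its signals were 139 and 123.3 in 2D and 222.4 and 237.9 in 3D. Other probe sets of these further genes were not compared. None of 11 other polyamine genes passed.

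Of 17 tested regulators, 2 fell and 1 rose, 11.8% and 5.88%, beside 4.15% and 2.83% of all genes tested; with so few genes, these shares rest on 1 or 2 calls. E2F3 and its partner TFDP1, which drive S-phase genes, fell by 0.64 and 0.58. MXD1, which competes with MYC for MAX, rose by 1.00 (adjusted p 0.0308 in limma). Its ratios were 0.45 and 1.55, the larger from the array with the raised ribosomal RNA signal. MXD1 signals were 91.4 and 82.8 in 2D, close to the floor of 72.3, and 124.4 and 242.4 in 3D. MYC was higher in 3D in both lines, with signals of 561.1 and 491.4 in 2D and 743.1 and 668.9 in 3D. Its difference of 0.43 ± 0.16 did not pass (adjusted p 0.132 in limma). Whether any of these regulators bears on the 8 genes was not tested.

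The second comparison set the lines against each other, transfected over empty vector. Of the 38 genes 0 passed limma with Benjamini-Hochberg adjustment, where 0.128% of all genes tested passed. Under an unadjusted p of 0.05 were 3 of the 38, or 7.89%, near the 8.14% of all genes tested. ODC1 had the largest difference of the 38, at 0.45 ± 0.17 log2 (moderated SE, 4 arrays; limma adjusted p 0.397), and was higher with the ARHGAP8 plasmid in both cultures, by 0.47 and 0.43. MAT2A was at 0.35, from 0.23 and 0.48. AHCY was at -0.40, from -0.21 and -0.59, and GART at -0.34, from -0.27 and -0.41. Other tested probe sets of GART differed in sign, from -0.65 to 0.11, and the mean of its probe sets gave -0.12. The differences of all 38 lay between -0.40 and 0.45.

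The medians of the 38 genes between the lines were 0.02 in 2D and 0.04 in 3D. None was 2-fold apart in either culture, where 0.250% of all genes were at least that much higher and as many lower in 2D, and 1.09% and 1.30% in 3D. Higher in the line labelled ARHGAP8 in both cultures were 14 genes, 36.8% against 25.4% of all genes tested, and lower in both were 8, 21.1% against 26.2%. The deoxynucleotide genes had medians of 0.03 on plastic and 0.38 in gel; the latter uses the array with the raised ribosomal RNA signal, whose part in it was not tested. Since each plasmid was represented by 1 line, an effect of ARHGAP8 and any other property of its line cannot be told apart.

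**Figure D4:**
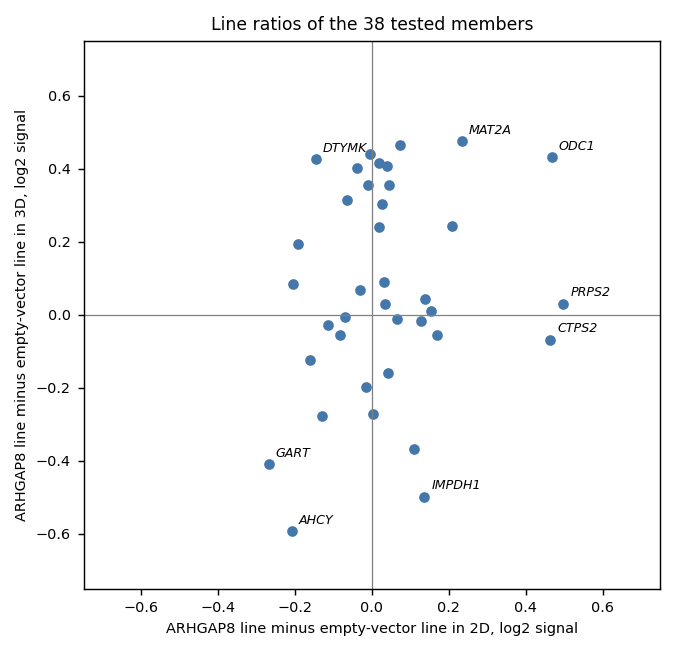
Log2 ratio of the line labelled ARHGAP8 over the empty-vector line for the 38 tested genes, in 2D on the horizontal axis and in 3D on the vertical axis; each point is 1 gene and single arrays carry no error bar. ODC1 and MAT2A lie high in both cultures, AHCY and GART low in both, and no gene reaches 1 in either direction.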

How the data were processed

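RNA of 4 samples, 1 per group, was measured on 1 Affymetrix array each. The authors deposited 1 linear signal intensity per probe set, which the submitters' processing notes credit to MAS5 (version and detection calls: not given in the sources used here). Signals were brought to the same trimmed mean on every array (2% cut from each end), raised to a floor of 72.3, the median of all scaled values, where they lay under it, and log2 transformed. Symbols came from the platform annotation, updated through a RefSeq gene table for 41037 probe sets; 41091 named 1 gene, 1801 several and 11721 none. A gene was read from its probe set with the highest mean log2 value, and tested if above the floor on at least 2 arrays. The test was limma 3.58.1 under R 4.3.3. It was also run on simulated data with independent noise of the variance fitted here. That run held no unusual array, so it cannot show how the test behaves with one. Promoter motifs and the sequences printed were chosen after the values were seen. The 40 genes, the further lists, the test and the alternatives were chosen with earlier results of these data known. All 40 genes are accounted for; those that passed or reached 2-fold get every array's signal, and of the further pathway genes those that passed are named. MYC was added after its values were seen. The alternatives were 2 other normalizations, the floor, the filter, the choice of probe set and the eBayes trend.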

Additional observations from a re-analysis of the deposited data

Results flagged for a closer look

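For 3 genes the ratio of the lines changed sign between the cultures and differed by at least 0.5 log2, a difference that was not tested since 1 array stands behind each value. IMPDH1 had line ratios (transfected over empty vector) of 0.14 in 2D and -0.50 in 3D, a difference of ratios of -0.63. CTPS2 was at 0.46 and -0.07, a difference of -0.53. DTYMK was at -0.15 and 0.43, a difference of 0.57. All 3 values use the 3D array with the raised ribosomal RNA signal, whose part in them was not tested. They hold for the probe sets used. Another DTYMK probe set read 203.4 and 309.7 (empty vector, then transfected) in 2D and 78.4 and 152.1 in 3D. A further one read 133.0 and 150.4, then 100.7 and 159.1. Neither changed sign, while that at 316.5 and 264.9, then 238.3 and 268.9, did. The other CTPS2 probe set read 118.4 and 118.5 in 2D, nearly equal, and 166.8 and 96.0 in 3D.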

How the results depend on the processing

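The 8 culture calls among the genes followed here became 2 falls and 0 rises with the mean of probe sets, 4 falls and 0 rises with eBayes without a trend, and 0 rises with a floor at the 25th percentile, where SAT1 had an adjusted p of 0.0583 in limma. Without suffixed probe sets SAT1 has no probe set, so 0 rises there is no loss of its call; 28 of the genes were tested. Over all genes, 375 rises and 550 falls became 25 and 12 with the mean of probe sets, 234 and 275 without suffixed probe sets and 213 and 212 without a trend; falls alone became 294 with quantile normalization, 343 with cyclic loess and 351 with the 25th percentile floor. The 17 plasmid calls became 0 with quantile normalization, cyclic loess, the 25th percentile floor, the filter of at least 1 array and the mean of probe sets, 61 with genes above the floor on all 4 arrays, 9 without suffixed probe sets and 1 without a trend; among the genes followed here there were 0 in every setting. TYMS passed with quantile normalization (-0.51) and RRM1 with genes above the floor on all 4 arrays (-0.52). With the mean of probe sets MTAP moved from 0.54 to 0.017, GMPS from -0.17 to -0.45 and CAD from -0.53 to -0.26, among 12 of 38 genes whose value moved by over 1.5 times without a change of sign; 10 did with quantile normalization, 8 with cyclic loess and 3 without suffixed probe sets. Values near 0 that did not pass changed sign. PPAT became 0.0092 with quantile normalization, 0.019 with cyclic loess, 0.046 with the mean of probe sets and 0.15 without suffixed probe sets. DHODH became -0.050 and -0.023 with quantile normalization and cyclic loess, AHCY 0.0062 and SMS 0.021 with cyclic loess, PRPS1 -0.15 with the mean of probe sets and DUT -0.055 without suffixed probe sets. The differences of ratios became 0.24 for DTYMK with the mean of probe sets and -0.80 for CTPS2 without suffixed probe sets. Fewer genes were tested without suffixed probe sets (10051); the cause of the other changes was not tested. The number of arrays limits all of these values.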
